A study of Homo sapiens with 2 samples.

Results

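The genes described here are the neighbours of ERBB2 on the long arm of human chromosome 17, in bands 17q12 to q21. Members were all rows of the deposited table on chromosome 17 with a coding start from 38.5 to 40.5 Mb (GRCh38, the files' build), leaving out ERBB2 itself. Rows without a coding span carry a single position there, which served as the coding start. This gave 77 of the 29972 genes in the table. RNA was measured in 2 xenograft tumours grown under the skin of nude mice, which lack T cells, from NCI-N87, an ERBB2-amplified line of human gastric carcinoma. The T-DM1-refractory tumour came from a mouse given T-DM1 (trastuzumab emtansine, an antibody against HER2 joined to a microtubule poison) every 3 weeks for 18 weeks. The untreated tumour came from a mouse that received none. Both libraries were made from polyadenylated RNA, and the dose of T-DM1 and the number of mice behind each tumour are not in the labels. Each group is 1 library, so no difference below has a replicate check, no test across samples was possible, and every interval covers counting error only.

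ERBB2 encodes HER2, a receptor tyrosine kinase of epithelial cells. When a tumour amplifies ERBB2, the extra DNA copies usually span a stretch of chromosome, so neighbours such as STARD3, PGAP3, MIEN1 and GRB7 are often copied and overexpressed with it, while tissue-restricted genes in the same stretch, such as NEUROD2 and TCAP, can stay low. DNA copy number was not measured in these tumours, and the table lists human genes only; the sources used here do not say how reads from mouse host cells were handled. In bulk tumour RNA, fewer cells that express a gene and less RNA per cell cannot be told apart.

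The refractory library held 59902704 expected counts and the untreated library 75722117. ERBB2 stood at 7975 CPM (counts per 1000000, on a scaled library size) in the refractory and 7267 CPM in the untreated tumour. The epithelial markers EPCAM (785 and 471 CPM), CDH1 (817 and 589 CPM), KRT8 (1827 and 3204 CPM) and KRT18 (922 and 1215 CPM) were abundant in both, refractory value first.

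Of the 77 members, 49 reached at least 1 CPM in the higher library and are described below; 3 of these were under 1 CPM in the other library. The other 28 were below that level, 20 of them with 0 counts in both tumours. Those 28 comprised 8 microRNA genes, 6 tRNA genes, 2 small nucleolar RNA genes, 4 unnamed loci or pseudogenes and 8 named genes. Libraries of polyadenylated RNA do not capture the mature small RNAs, so their zeros say nothing about them. The 8 named genes included NEUROD2, a neuronal transcription factor, with 0 counts in the refractory and 5 in the untreated library. ZPBP2, a sperm protein, had 1 and 0 counts, and CSF3, the granulocyte colony-stimulating factor, had 2 and 2 counts, again refractory first. Among the others were FBXO47, STAC2, LRRC3C and C17orf98.

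Together the 77 members took 1.88% of all counts in the refractory library (exact 95% interval 1.879 to 1.885) and 1.71% in the untreated library (1.708 to 1.714). With ERBB2 the share was 2.67% in the refractory and 2.44% in the untreated library. Much of the members' difference came from PPP1R1B: without it the members took 1.76% in the refractory and 1.69% in the untreated library. The window was densely expressed. Of the 49 described members, 23 were at 100 CPM or more in both tumours, which is 46.9%, against 14.6% of all 14167 described genes, 10% of the 20 described genes in the 2 Mb before the window and 21.6% of the 37 in the 2 Mb after it. By deposited FPKM, which divides by transcript length, 18 members (36.7%) lay in the top 5% of the whole table in both tumours, against 8.58% of all described genes. None of the 20 genes before the window and 7 of the 37 after it did so.

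Most members differed by less than 2-fold between the tumours. A gene was called when log2(CPM + 1) differed by at least 2-fold. In the refractory tumour 5 of 49 members (10.2%) were called higher, where 9.80% of all described genes were, and 10 (20.4%) were called lower, where 11.0% of all were; either way 20.8% of all genes were called. The share called higher was close to that background and the share called lower was above it, with no test of either. The remaining 34 members lay between. The median log2 of the 49 was 0.07, beside 0.03 over all described genes and 0.06 over the 806 described genes elsewhere on chromosome 17. Members at the limit were IKZF3, called at 1.003, and THRA and LOC102724129, not called at 0.92 and -0.93.

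**Figure D1:**
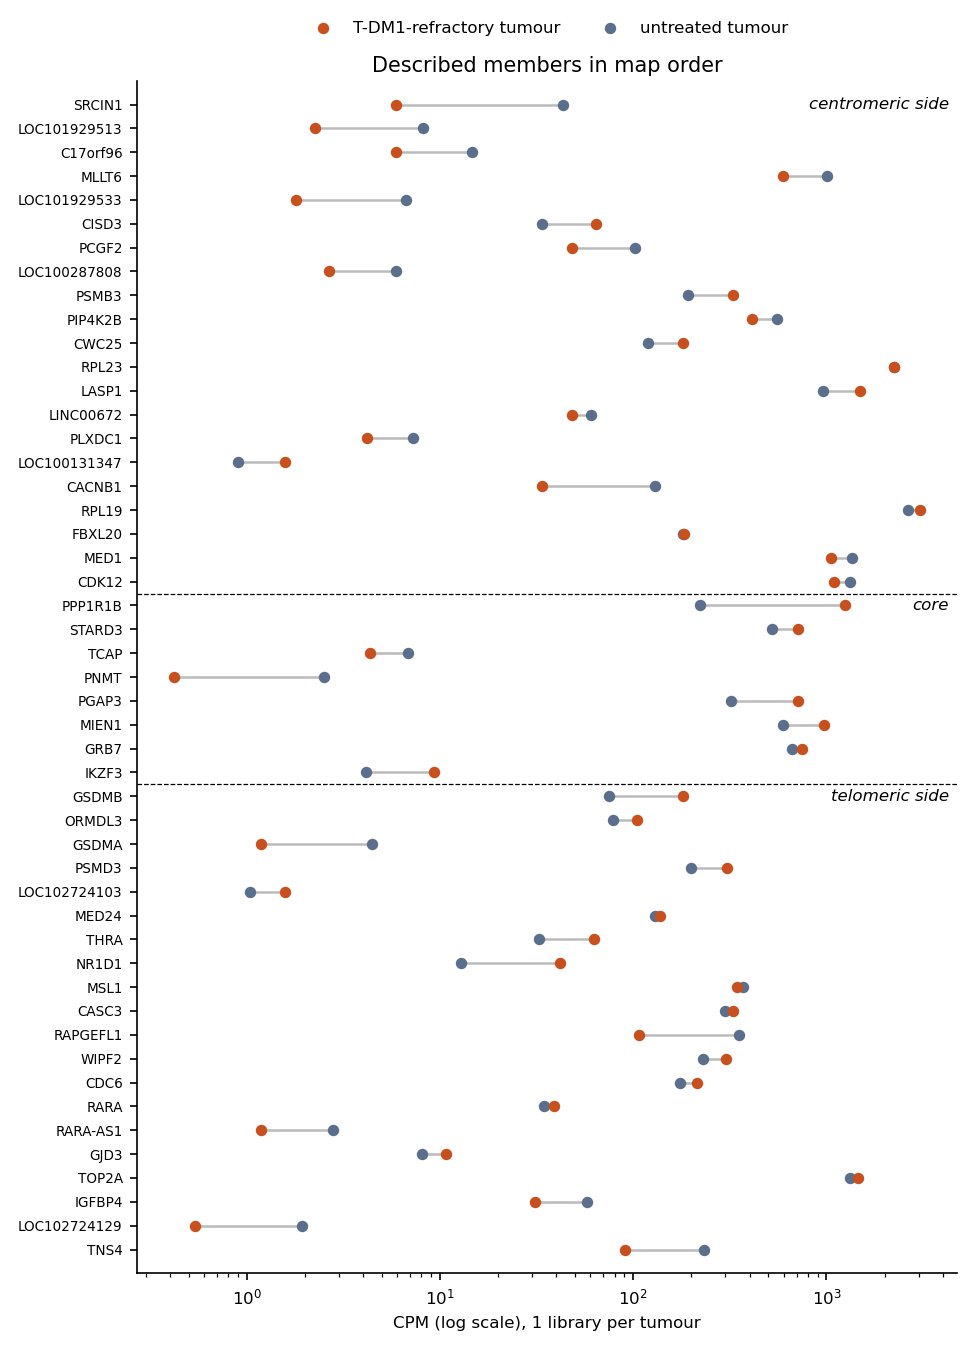
CPM of the 49 described members in map order, on a log axis, with 1 library per point; orange is the T-DM1-refractory and blue the untreated tumour, and dashed lines divide the 3 map blocks. The widest gaps, refractory value first, are those of SRCIN1 (5.93 and 43.0 CPM), PNMT (0.421 and 2.5 CPM) and PPP1R1B (1244 and 221 CPM), while RPL23 and FBXL20 nearly coincide.

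By map position the window was divided into 3 blocks, none of which was tested. Over all described genes 9.80% were called higher and 11.0% lower. On the centromeric side, from SRCIN1 to CDK12, 0 of 21 described members were called higher and 6 lower, and the median log2 was -0.36. In the core, from NEUROD2 to IKZF3, the genes commonly amplified with ERBB2, 3 of 8 were higher and 1 lower, with a median of 0.58; under every other scaling tried and on FPKM IKZF3 was not called, which left 2 of 8. On the telomeric side, from GSDMB to TNS4, 2 of 20 were higher and 3 lower, with a median of 0.15. A running median over 7 neighbouring members was lowest at MLLT6 (-1.17), and between -0.33 and 0.02 from PSMB3 to CDK12. It was highest at MIEN1, GRB7 and IKZF3 (0.71), and -0.79 at TOP2A near the other edge. The 7 at MLLT6 include LOC101929513 and LOC101929533, positioned inside SRCIN1 and MLLT6, and the overlapping CISD3 and PCGF2. These may share reads, so they are not independent neighbours. LOC101929513, LOC101929533 and PCGF2 are also among the 6 called lower. Outside the window, 0 of 20 described genes before the window were called higher and 1 lower (median -0.07), and 2 of 37 after it were higher and 8 lower (median -0.14).

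**Figure D2:**
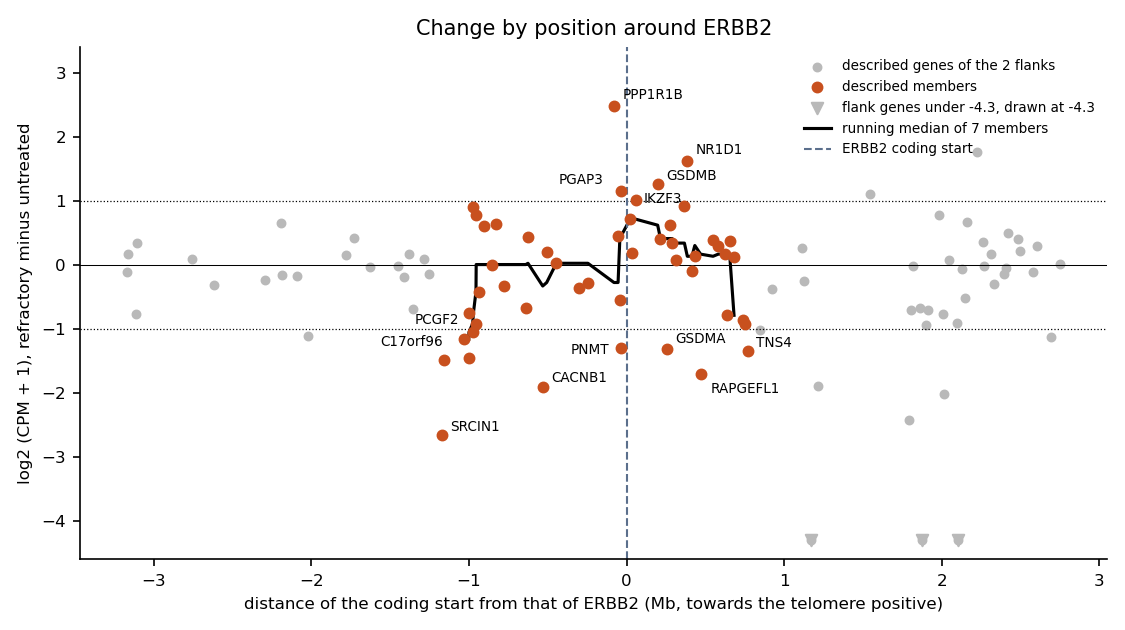
Change of each described gene (log2 of CPM + 1, refractory minus untreated) against the distance of its coding start from that of ERBB2, in Mb; orange points are members, grey points the genes of the 2 flanks, the black line is the running median over 7 members, and dotted lines mark 2-fold. Members next to ERBB2 lie mostly above 0, with PPP1R1B at 2.49, and those at both edges of the window mostly below it, with SRCIN1 at -2.67 and TNS4 at -1.34.

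Promoters are shown for the called members with the most counts among those that had an entry in RefSeq, 2 higher and 2 lower, so that the start regions can be read side by side. Each runs from 250 bases before to 50 after the start of the gene's RefSeq entry (GRCh38.p14, read 5′ to 3′ on the gene's strand). The RAPGEFL1 stretch, 40177220 to 40177519 on the plus strand, lies wholly downstream of that gene's deposited coding start, 40177056. It may therefore not be the promoter of the RAPGEFL1 transcripts counted here, which was not tested. Capitals mark the GC box GGGCGG and the hypoxia response core ACGTG on either strand; in CACNB1 a pair of GC boxes overlap.
PGAP3 (chr17:39688008-39688307, minus strand): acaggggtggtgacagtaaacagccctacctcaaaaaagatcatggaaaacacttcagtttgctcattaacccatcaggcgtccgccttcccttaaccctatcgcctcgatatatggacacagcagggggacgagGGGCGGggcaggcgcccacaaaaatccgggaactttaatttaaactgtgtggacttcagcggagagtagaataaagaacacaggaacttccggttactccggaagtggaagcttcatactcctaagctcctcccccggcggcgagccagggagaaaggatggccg
NR1D1 (chr17:40100540-40100839, minus strand): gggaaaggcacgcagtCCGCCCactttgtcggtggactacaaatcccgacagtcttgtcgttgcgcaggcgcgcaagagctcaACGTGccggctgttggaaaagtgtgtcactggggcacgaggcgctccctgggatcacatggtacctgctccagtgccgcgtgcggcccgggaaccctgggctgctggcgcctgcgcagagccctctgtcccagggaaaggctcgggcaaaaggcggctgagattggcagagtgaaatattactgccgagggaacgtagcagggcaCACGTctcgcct
CACNB1 (chr17:39197620-39197919, minus strand): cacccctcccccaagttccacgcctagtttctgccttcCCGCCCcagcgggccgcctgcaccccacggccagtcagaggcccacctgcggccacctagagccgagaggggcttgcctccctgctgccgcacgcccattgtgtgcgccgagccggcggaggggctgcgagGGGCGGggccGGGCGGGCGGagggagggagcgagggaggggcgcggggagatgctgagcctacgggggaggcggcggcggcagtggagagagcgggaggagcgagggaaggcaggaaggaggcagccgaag
RAPGEFL1 (chr17:40177220-40177519, plus strand): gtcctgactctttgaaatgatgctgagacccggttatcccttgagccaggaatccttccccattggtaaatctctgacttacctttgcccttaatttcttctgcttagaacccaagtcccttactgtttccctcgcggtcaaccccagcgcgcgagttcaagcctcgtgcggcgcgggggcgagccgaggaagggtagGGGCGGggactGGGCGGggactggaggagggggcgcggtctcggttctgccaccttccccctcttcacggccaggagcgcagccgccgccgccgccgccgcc

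RefSeq promoters were matched for 30 of the 49 described members, 2 called higher and 4 called lower among them. The GC box was found in 19 of the 30 (63.3%), against 45.0% of all 35116 promoters of that length, and the hypoxia response core in 9 (30%), against 21.4%. The E-box CACGTG, which contains that core, was in 4 (13.3%), against 7.26%. CCAAT was in 12 (40%), against 34.6%, TATAAA in 3 (10%), against 11.5%, and the AP-1 site TGANTCA in 0, against 7.71%. CACNB1 had 4 GC boxes, RAPGEFL1 2, and PGAP3 and NR1D1 1 each. The hypoxia core was matched 2 times in NR1D1 and 0 times in the other three shown. The 30 belong to described members, whereas the 35116 were taken without regard to expression, so the sets are unlike. Median GC content was 60.5% in the 30 and 58.7% over all promoters. These letter matches describe the windows only, and no factor's binding was measured.

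In the core, 5 members were above 200 CPM in both tumours, and the refractory value was the higher one for each, past 2-fold for PPP1R1B and PGAP3. PPP1R1B encodes DARPP-32, an inhibitor of protein phosphatase 1 best known from dopamine signalling in the brain (coding span 39627393 to 39635865). It had 73826 counts in the refractory and 16919 in the untreated library, 1244 and 221 CPM, a ratio of 5.62 (95% interval 5.53 to 5.72). It was the greatest increase of the window. A shorter form of the protein, t-DARPP, is made from the same gene, and the table does not separate the 2 forms.

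PGAP3, which remodels the lipid of GPI anchors in the Golgi, starts beside ERBB2 on the opposite strand (39672803 to 39688014). Its level was 716 CPM in the refractory and 320 CPM in the untreated tumour, a ratio of 2.24 (2.2 to 2.27). MIEN1, a membrane-anchored protein linked to cell migration, stood at 976 and 596 CPM in the same order (ratio 1.64, 1.62 to 1.66) and was not called. In GENCODE 29 its exons overlap those of ERBB2 by 571 bases on the opposite strand, and those of PGAP3 overlap ERBB2 by 194 bases. Reads there could belong to either gene. The deposited counts of MIEN1, PGAP3 and ERBB2 were whole in both libraries, with no sign of reads divided among them. STARD3, a cholesterol transfer protein of late endosomes, stood at 709 CPM in the refractory and 520 CPM in the untreated tumour (ratio 1.36, 1.35 to 1.38). The smallest difference of the 5 was that of GRB7, an adaptor that binds the phosphorylated HER2 tail, at 744 and 660 CPM (ratio 1.13, 1.11 to 1.14), close to the 1.1 of ERBB2 itself (1.09 to 1.1).

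The low-level core genes differed in direction. IKZF3, the lymphoid transcription factor Aiolos, was at 9.29 CPM in the refractory and 4.13 CPM in the untreated tumour (ratio 2.25, 1.95 to 2.59). PNMT, the enzyme that makes adrenaline, was at 0.421 and 2.5 CPM, from 25 and 191 counts (ratio 0.169, 0.106 to 0.257). TCAP, the titin cap protein of muscle, was at 4.32 and 6.79 CPM and not called (ratio 0.636, 0.545 to 0.740). The core members as a whole took 0.436% of the refractory and 0.235% of the untreated counts, or 0.313% and 0.213% without PPP1R1B.

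Beyond the core, the gasdermins, pore-forming proteins of lytic cell death, differed in direction. GSDMB (39904812 to 39917316) stood at 181 CPM in the refractory and 74.9 CPM in the untreated tumour, a ratio of 2.42 (2.34 to 2.5). GSDMA, a gasdermin of skin and upper gut, was at 1.18 and 4.42 CPM, from 70 and 338 counts (ratio 0.267, 0.203 to 0.346). Between them on the map lies ORMDL3, a brake on sphingolipid synthesis, at 104 and 78.2 CPM (ratio 1.33, 1.28 to 1.38), which was not called. Of the gasdermins encoded elsewhere, GSDMC was called lower (2.90 and 15.5 CPM) and GSDMD was not called (32.4 and 20.8 CPM), refractory first.

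The deposited FPKM gave GSDMB a ratio of 3.15, more than the 2.42 from counts. Counts divided by FPKM give the transcript length implied by the authors' estimate, and for GSDMB this was 0.755 of the untreated value in the refractory tumour, after setting the median of all genes to 1. Of 37 members with at least 5 CPM in both libraries, 1, GSDMB, differed by over 1.1-fold on this measure. That share is close to the 2.58% of 10388 genes that did so, and is no particular trait of the window. The next member was CWC25 at 0.932, and PPP1R1B was at 1.002. Which GSDMB transcripts carried the reads is not in the table, and the part of shorter transcripts in this difference was not tested.

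**Figure D3:**
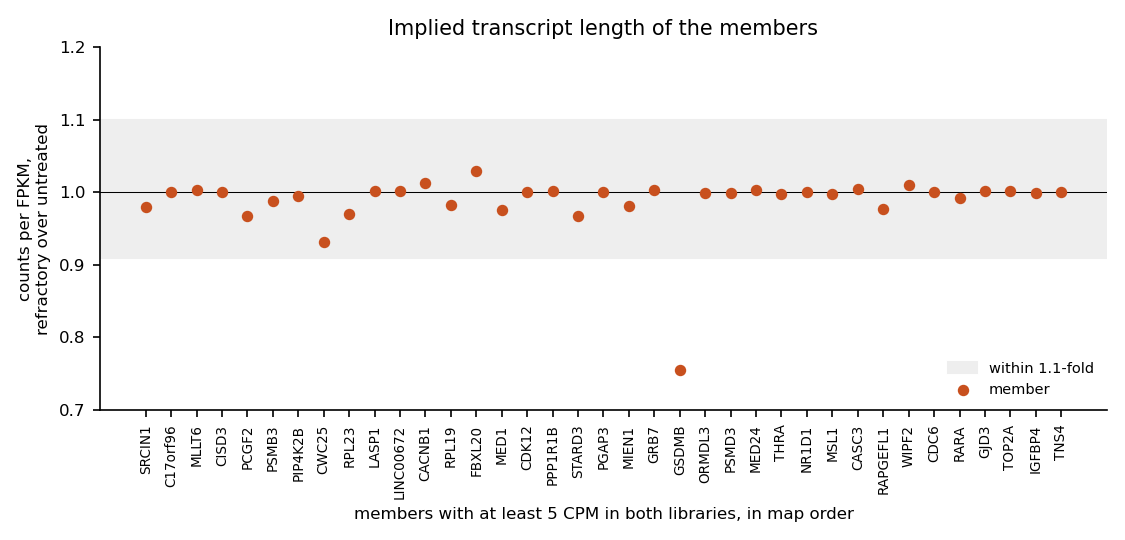
Counts per FPKM, refractory over untreated and scaled to a median of 1 over all genes, for the 37 members with at least 5 CPM in both libraries, in map order; the grey band is 1.1-fold around 1. GSDMB at 0.755 is the single point outside the band.

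Nuclear receptors, transcription factors switched by small ligands, lie together on the telomeric side. NR1D1 encodes REV-ERB alpha, the haem-binding repressor of the circadian clock (40093083 to 40100094), and stood at 41.6 CPM in the refractory and 12.8 CPM in the untreated tumour (ratio 3.25, 3.02 to 3.5). THRA, the thyroid hormone receptor alpha, was at 62.5 and 32.6 CPM (ratio 1.92, 1.82 to 2.02), just short of a call. The ends of these 2 genes overlap on opposite strands, by 263 exon bases of which 197 are coding in GENCODE 29, and their deposited counts were not whole (3707.39 and 2470.61 in the refractory library, 2490.87 and 980.13 in the untreated one, THRA first). In each library the pair summed to a whole number within 0.015. The sums, 6178 and 3471 counts, had a ratio of 2.29 (2.2 to 2.39), so the pair together was past 2-fold however the reads were divided. RARA, the retinoic acid receptor alpha, differed little (38.7 and 34.5 CPM, ratio 1.12, 1.06 to 1.19), refractory first. Its relatives elsewhere had lower values in the refractory tumour, RARB at 0.0674 CPM against 29.3 CPM (called) and RARG at 45.1 CPM against 89.96 CPM (not called).

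The greatest decrease was that of SRCIN1, an adaptor that restrains SRC kinase, at the centromeric edge (38533297 to 38564220). It stood at 5.93 CPM in the refractory and 43.0 CPM in the untreated tumour, from 352 and 3290 counts, a ratio of 0.138 (0.123 to 0.154). CACNB1, a regulatory subunit of voltage-gated calcium channels (39175193 to 39197495), was at 33.8 and 129 CPM (ratio 0.262, 0.249 to 0.274). RAPGEFL1, a relative of the exchange factors of RAP GTPases (40177056 to 40193788), was at 107 and 352 CPM (ratio 0.304, 0.295 to 0.312). TNS4, a tensin of epithelial focal adhesions at the telomeric edge, was at 90.5 and 231 CPM (ratio 0.391, 0.379 to 0.403). In each of these pairs of CPM the refractory value is first. The adaptor and cytoskeleton group held 3 of these decreases among 5 members, too few to read against the 11.0% of all genes called lower, and the group was not tested. The other two, LASP1, an actin-binding LIM protein, and WIPF2, a WASP-interacting protein, were not called and stood at 1500 and 301 CPM in the refractory tumour, against 963 and 229 CPM in the untreated tumour.

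The 2 polycomb-associated genes of the window were also lower. PCGF2, a ring-finger subunit of polycomb repressive complex 1, was at 48.3 CPM in the refractory and 102 CPM in the untreated tumour (ratio 0.475, 0.455 to 0.496). C17orf96, known as EPOP and tied to polycomb repressive complex 2, was at 5.93 and 14.6 CPM (ratio 0.408, 0.361 to 0.460). On the deposited FPKM, and with a pseudocount of 5 CPM, C17orf96 was not called. PCGF2 shares 1148 exon bases on the opposite strand with CISD3, an iron-sulphur protein of mitochondria, which stood at 64.1 and 33.9 CPM (ratio 1.89, 1.80 to 1.99), and both had counts that were not whole. CISD3, PCGF2 and the neighbouring LOC100287808 summed to 6825.99 counts in the refractory and 10811 in the untreated library, a ratio of 0.814 (0.789 to 0.839). The part of the division of reads in the opposite directions of CISD3 and PCGF2 was not tested.

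The described unnamed loci, LINC00672 and RARA-AS1 have no coding span in the deposited table, although GENCODE 29 types LINC00672 as protein-coding. Of these 8 described members, 2 were called, both lower, where 11.0% of all described genes were called lower. LOC101929513 (2.26 and 8.11 CPM, ratio 0.279, 0.229 to 0.336) has its deposited position inside the coding span of SRCIN1. LOC101929533 (1.79 and 6.66 CPM, ratio 0.268, 0.216 to 0.331) has its position inside that of MLLT6, refractory first in both. Only that position is given for each, so how far these loci extend is not known. The sources used here do not say whether counting used strand. THRA and NR1D1 above, on opposite strands, had divided counts, a division that counting by strand would avoid. So did RARA and RARA-AS1, also on opposite strands. IGFBP4 and LOC102724129 likewise had counts that summed to whole numbers only as a pair. The counts of LOC101929513, LOC101929533, SRCIN1 and MLLT6 were whole, with no sign of reads divided among them. Without strand, a read assigned only to LOC101929513 or LOC101929533 could still come from SRCIN1 or MLLT6. The uncalled among the 8 stayed below 6 CPM in both libraries, except LINC00672, which was at 48.0 CPM in the refractory and 60.7 CPM in the untreated tumour. Without the pseudocount, LOC102724129 (ratio 0.279, 0.184 to 0.411), RARA-AS1 (0.426, 0.320 to 0.560) and LOC100287808 (0.448, 0.372 to 0.539) were also past 2-fold lower. In the other direction were LOC100131347 (1.74, 1.26 to 2.41) and LOC102724103 (1.52, 1.11 to 2.07).

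The 2 most abundant members, RPL19 and RPL23, differed little. These proteins of the large ribosomal subunit stood at 3040 and 2238 CPM in the refractory tumour, against 2642 and 2236 CPM in the untreated tumour. Their ratios were 1.15 (1.14 to 1.16) and 1.001 (0.994 to 1.01). PSMB3, a subunit of the proteasome core, was at 327 and 192 CPM (ratio 1.71, 1.67 to 1.75), and PSMD3, of its regulatory cap, at 304 and 198 CPM (ratio 1.54, 1.5 to 1.57), refractory first. The log2 of PSMB3 (0.77) and PSMD3 (0.62) stood beside a median of 0.56 over 29 listed proteasome subunits encoded elsewhere, of which 1 was called higher. That list does not hold every proteasome gene.

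Among the Mediator, kinase and chromatin genes of the window, none was called apart from the polycomb genes above. MED1 and MED24 are subunits of Mediator, which links activators to RNA polymerase II. MED1 was at 1060 CPM in the refractory and 1364 CPM in the untreated tumour (ratio 0.777, 0.770 to 0.785), and MED24 at 137 and 130 CPM (log2 0.07). CDK12, the kinase of the polymerase tail that sustains long DNA repair genes, was at 1095 and 1329 CPM (ratio 0.824, 0.816 to 0.832). MLLT6, a chromatin protein known as a fusion partner in leukaemia, was at 593 and 1002 CPM (ratio 0.592, 0.585 to 0.600) and MSL1, of a histone acetyltransferase complex, at 344 and 370 CPM (ratio 0.929, 0.912 to 0.946). CASC3, a core protein of the exon junction complex, was at 328 and 299 CPM, and CWC25, a splicing factor, at 180 and 119 CPM, the refractory value first and neither called.

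TOP2A, the mitotic topoisomerase that is sometimes co-amplified with ERBB2, was at 1448 CPM in the refractory and 1331 CPM in the untreated tumour (ratio 1.09, 1.08 to 1.1). CDC6, which loads the replicative helicase, was at 214 and 174 CPM (ratio 1.23, 1.2 to 1.26). The remaining members at 10 CPM or more were not called: the phosphoinositide kinase PIP4K2B (414 and 555 CPM), the ubiquitin ligase adaptor FBXL20 (183 and 181 CPM), the IGF-binding protein IGFBP4 (30.9 and 57.3 CPM) and the connexin GJD3 (10.7 and 8.10 CPM), refractory first. PLXDC1 was below that level, at 4.18 and 7.26 CPM.

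Levels can be set against relatives encoded elsewhere in the genome by deposited FPKM. The lists do not hold every gene of the larger families, so each rank is a rank within its list. In both tumours MED1 ranked 1 of 30 listed Mediator genes, at 138 FPKM in the refractory and 176 FPKM in the untreated tumour. The medians over the 28 listed ones encoded elsewhere were 15.0 and 15.6 FPKM. MED24 ranked 4 in both. PSMB3 ranked 1 of 31 proteasome genes in both (648 and 380 FPKM, against medians of 108 and 76.9 FPKM elsewhere), while PSMD3 ranked 9 in the refractory and 10 in the untreated tumour. RPL23 ranked 1 of 80 ribosomal protein genes in both tumours and RPL19 ranked 2 in the refractory and 3 in the untreated tumour. The ribosomal list was added with these values in view.

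Several members also exceeded the relatives in small families. GRB7 was at 390 FPKM in the refractory and 352 FPKM in the untreated tumour, whereas its relative GRB10 was at 20.8 and 4.27 FPKM and GRB14 at 18.5 and 2.39 FPKM. By CPM, both of these relatives were called higher in the refractory tumour (GRB10 at 88.7 and 17.8 CPM, GRB14 at 24.96 and 2.88 CPM), so the gap between GRB7 and them was narrower there. STARD3 was at 380 and 273 FPKM and its relative STARD3NL at 21.1 and 25.8 FPKM. CDK12 was at 147 and 181 FPKM, with CDK13 at 15.0 and 19.1 FPKM and the partner cyclin CCNK at 17.8 and 16.8 FPKM. TOP2A was at 263 and 246 FPKM and TOP2B at 33.0 and 50.7 FPKM. Each pair is given refractory first.

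Of the other members compared, some did not lead their families and some did. IKZF3 ranked 4 of 5 Ikaros factors in both tumours, RARA 2 of 3 retinoic acid receptors, NR1D1 2 of 2 and GSDMA 4 of 5. ORMDL3 ranked 1 of 3 in the refractory tumour (56.0 FPKM) and 2 of 3 in the untreated tumour (42.7 FPKM), behind ORMDL1 there. CASC3 ranked 1 of 4 exon junction genes, and THRA, GSDMB and PPP1R1B ranked 1 in their lists in both tumours. PPP1R1B was at 1010 FPKM in the refractory and 183 FPKM in the untreated tumour, while PPP1R1C was at 2.99 and 3.02 FPKM and PPP1R1A at 0 and 0.0866 FPKM.

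**Figure D4:**
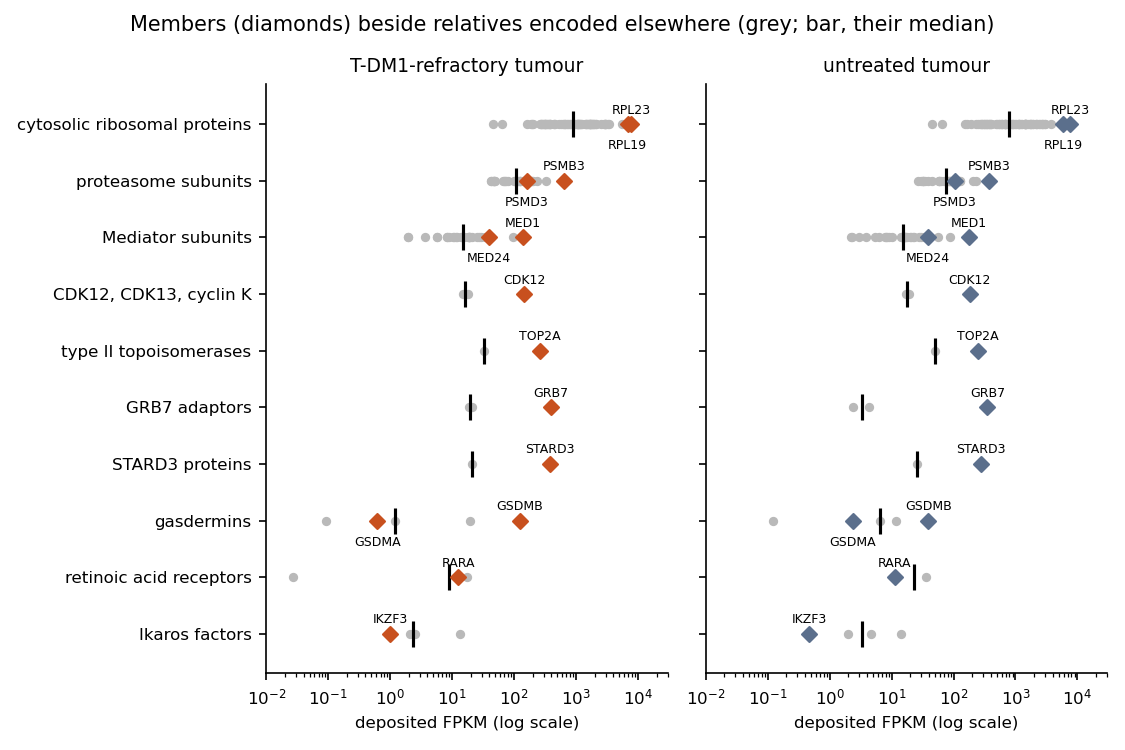
Deposited FPKM (log axis) of members (diamonds) and of their relatives encoded elsewhere (grey points; black bar, median of those relatives) in the refractory tumour (left) and the untreated tumour (right); relatives under 0.02 FPKM are not drawn. MED1, PSMB3, RPL23, CDK12, TOP2A, GRB7, STARD3 and GSDMB are the highest of their lists in both tumours, whereas RARA and IKZF3 are not.

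In the authors' deposited table, which sets 1 library against 1, 3 of the 77 members had a p-value under 0.05, beside 7.20% of all 29972 genes. They were SRCIN1 and PNMT, lower in the refractory library, and PPP1R1B, higher there. The sources used here do not give the dispersion behind those p-values, which compare the libraries and not the conditions.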

How the data were processed

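Per the file headers, the authors' deposited table gives expected counts and FPKM for each library, with a log2 fold change and a p-value for every gene. The expected counts are estimates and not always whole. The software named is STAR 2.7.0e, RSEM 1.2.28, edgeR 3.26.8 and bcl2fastq 2.20, with builds GRCh38 and GRCm38, per the submitters' processing notes; their roles and the annotation are not stated there. The authors' log2 fold change matched refractory over untreated on counts within 0.0207 over 13007 genes above 50 counts.

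Counts were rounded and scaled by TMM (edgeR 4.0.16, R 4.3.3), with factors of 0.9904 for the refractory and 1.0097 for the untreated library. Ratios are of CPM, with exact 95% intervals of 2 Poisson counts given their sum (counting error alone, as the reads carry no molecular identifiers); 3 counts correspond to 0.0506 CPM in the refractory and 0.0392 CPM in the untreated library. Calls use log2(CPM + 1), which understates changes of low genes, among genes whose higher library reached 1 CPM. Gene models are GENCODE 29: 99.2% of 1060 coding genes of chromosome 17 had a coding edge within 3 bases. Called and described core members are given with intervals, other members at 10 CPM or more with both CPM values, and the rest by counts or ranges. The measure of implied length, the ribosomal list and the sums of divided counts were added with the data in view. The members and gene lists were chosen with earlier results of these data known. Calling and intervals were tried on data simulated with counting error only, which cannot show how calls fare under variation between tumours.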

Additional observations from a re-analysis of the deposited data

How the results depend on the processing

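Under 3 other scalings (total count, median of ratios, total count without the members and ERBB2) 4 members were called higher and 10 lower, in place of 5 and 10; without the 50 most abundant genes in the total the counts were 4 and 11. IKZF3 was the call lost in all 4, and LOC102724129 the one gained in the last. On the deposited FPKM 4 of 47 were called higher (8.51%, beside 8.68% of all genes), without IKZF3. There 9 were called lower (19.1%, beside 8.98%), without C17orf96. A pseudocount of 5 CPM called 5 of 49 lower (10.2%, beside 5.93% of all genes), one of 0.1 CPM called 13 (26.5%, beside 13.5%) and a filter of 10 CPM called 6 of 37 (16.2%, beside 8.89%). At 1.5-fold 12 were called higher (24.5%, beside 19.4%) and 16 lower (32.7%, beside 18.9%), and at 4-fold 1 higher (2.04%, beside 2.54%) and 1 lower (2.04%, beside 3.56%). The median of the core members was 0.46 on the deposited FPKM, 0.31 with no filter and 0.71 with a filter of 10 CPM. A wider window (38 to 41 Mb) gave a median of -0.026 over its members, which then took 1.98% of the refractory and 1.94% of the untreated counts. A narrower one (39 to 40 Mb) gave a median of 0.27, 3 members called lower, and shares of 1.031% and 0.842%, refractory first. No called member changed direction under another scaling or on FPKM. No paired analysis was possible because each group has 1 library. Depth limits the members under 10 CPM, whose intervals are the widest.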
